A study of Mus musculus with 6 samples.

Results

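Cytosolic ribosomal proteins build the 40S and 60S subunits of the ribosome, and 82 of the 25904 genes in a mouse liver RNA-seq count table encode them here. They were chosen by name and not by value: protein-coding genes named Rpl or Rps with a number, with Rpsa and Fau added and the S6 kinases left out. Small-subunit proteins account for 33 of the genes and large-subunit proteins for 49, and 7 of the 82 are minor paralogs of another member (Rpl3l, Rpl7l1, Rpl10l, Rpl22l1, Rpl36al, Rpl39l and Rps27l). The rule misses the acidic stalk genes Rplp0, Rplp1 and Rplp2 and the 40S scaffold gene Rack1, which are given separately. The libraries are 3 from Ptprd+/- livers (Het) and 3 from Ptprd+/+ livers (WT), all from C57BL/6J mice, with 1 library per liver sample. Ptprd encodes the receptor tyrosine phosphatase PTPRD, so the comparison sets livers with 1 altered copy against livers with no altered copy. No treatment is named for either genotype. The sources used here do not give the kind of altered allele or the tissues it acts in, nor the age, sex or diet of the animals. Nothing states which samples came from which mouse, so p-values measure the spread between these samples.

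A mammalian ribosome holds 1 copy of nearly every ribosomal protein, so the cell makes these proteins in matched amounts. Their mRNAs typically begin with a C followed by a run of pyrimidines, the 5′ terminal oligopyrimidine (TOP) tract, through which mTOR and the RNA-binding protein LARP1 adjust their translation together. Ribosomal protein genes have also left large families of processed pseudogenes in mammalian genomes, some of them close to perfect copies, and a sequencing read from such a stretch cannot be placed by sequence alone.

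The coding starts of Rps27 and its relatives show the problem at base level, and they are printed because this paralog was counted far more often than its parent. Rps27 lies on chromosome 3 and Rps27l, its paralog, on chromosome 9, and Rps27rt, an intronless copy that the count table lists as protein-coding, is also on chromosome 9. The first 90 coding bases are given 5′ to 3′ from the GENCODE M21 transcripts, with capitals marking bases that differ from Rps27.
Rps27: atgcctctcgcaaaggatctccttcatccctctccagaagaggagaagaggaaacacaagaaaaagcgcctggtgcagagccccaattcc
Rps27rt: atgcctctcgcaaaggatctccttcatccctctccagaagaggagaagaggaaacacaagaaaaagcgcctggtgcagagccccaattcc
Rps27l: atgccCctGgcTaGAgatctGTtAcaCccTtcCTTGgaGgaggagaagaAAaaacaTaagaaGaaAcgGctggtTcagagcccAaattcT
Rps27l differed from Rps27 at 24 of the 90 bases and Rps27rt at 0.

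Whether a TOP-like tract opens the annotated transcript varies among the members, and 6 starts are printed, those of the Rps27 pair, of the members with an unadjusted p under 0.05 (Rps25, Fau and Rpl15) and of Rps15. Each run covers 12 bases before the RefSeq start and 18 from the start on (GRCm38.p6, the mm10 assembly), in the direction of transcription. For a gene with several RefSeq starts, the start with the longest tract was taken. Capitals mark a run of at least 5 C or T that opens with a C within 3 bases of the annotated start.
Fau, chr19:6057935-6057964, plus strand: gcgcccccaCTTCTTCCTCTTTCTTgactc
Rpl15, chr14:18270969-18270998, minus strand: ggagaaagcCTTCTTCCTTTCCTCTggcgg
Rps27, chr3:90213631-90213660, minus strand: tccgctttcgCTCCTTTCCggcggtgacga
Rps27l, chr9:66946074-66946103, plus strand: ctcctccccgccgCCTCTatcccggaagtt
Rps25, chr9:44407702-44407731, plus strand: ttccgacatcttagcgaggctgctgtggtc
Rps15, chr10:80292419-80292448, plus strand: ggcagagctcgcgataactgcgcaagcgca
The tract was 16 bases long in Fau and in Rpl15, 9 in Rps27 and 5 in Rps27l, and by this rule Rps25 and Rps15 had none at the annotated position. An annotated start can lie some bases from the start used in liver, so a start without a tract in this window is no statement about the mRNA.

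Total counts ranged from 37924266 to 72954187 per library. Ptprd itself had 54.1, 78.1 and 63.4 CPM (counts scaled to a common library size with edgeR's TMM factors) in Het 1, Het 2 and Het 3, against 128, 127 and 132 CPM in WT 1, WT 2 and WT 3, so the libraries carry the genotype their labels give. Alb was at 100040 CPM or more in each library, which marks the tissue as liver. Every pair of libraries of 1 genotype differed by more than sampling noise. Across all 14606 genes with enough counts to test, edgeR's quasi-likelihood test with Benjamini-Hochberg adjustment called none at an adjusted p under 0.05, while 1045 had an unadjusted p under 0.05, and DESeq2 called 64 at its adjusted threshold.

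As a family, ribosomal protein mRNAs took a small share of the liver's counts, and it did not differ between genotypes beyond the spread between libraries. It is a share of counted reads, and the sources used here do not state how reads with several matching places were counted. The share was 0.332, 0.299 and 0.305% in Het 1, Het 2 and Het 3, against 0.294, 0.299 and 0.332% in WT 1, WT 2 and WT 3. The means were 0.312 ± 0.0174% in Het and 0.308 ± 0.0208% in WT (SD, n = 3 each), a difference of 0.0037 percentage points, which is smaller than either SD. The genotypes overlapped, with 1 library of each standing above the other 4. Rpl4, Rps3 and Rpl8 alone held between 32.7 and 33.8% of the family's counts in each library. In bulk liver, fewer cells of a type and less RNA per cell cannot be told apart.

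Of the 82 members 78 passed the filter on low counts, and Rpl38, Rpl3l, Rpl10l and Rpl39l did not. None of the 78 passed edgeR's adjusted threshold, as was so for all genes (percent called 0), and the smallest adjusted p of a member was 0.654. Without adjustment, 3 of the 78 (3.85%; Rps25, Fau and Rpl15) had a p under 0.05 by edgeR, below the 7.15% of all tested genes, with 2 higher in Het (background 3.39%) and 1 lower (background 3.77%). All Het libraries lay on one side of all WT libraries for 7 of the 78 (8.97%), against 13.9% of all tested genes. Of these 6 were higher in Het (background 7.15%) and 1 was lower (background 6.72%). DESeq2 called 0 members at its adjusted threshold, where it called 0.438% of all genes, and gave 2 members (2.56%) an unadjusted p under 0.05, against 6.79% of all genes.

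The fitted changes were small and of both signs. The median log2 fold change, Het over WT, was 0.08 over the 78 members, beside -0.004 over all tested genes, with 49 members above 0 and 29 below. The values ran from -0.43 for Rpl36a to 0.58 for Fau, and 69 of the 78 were within 0.3 of 0. The value of Rpl36a rested on single libraries, at -0.07 without WT 3, -0.18 without Het 2 and -0.70 without Het 3. Small-subunit members had a median of 0.08 and large-subunit members of 0.07. The 4 X-linked members (Rpl10, Rpl36a, Rpl39 and Rps4x) had a median of -0.05. The members lie on 20 chromosomes, 13 of them on chromosome 7 and 5 on chromosome 4, the chromosome of Ptprd.

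**Figure D1:**
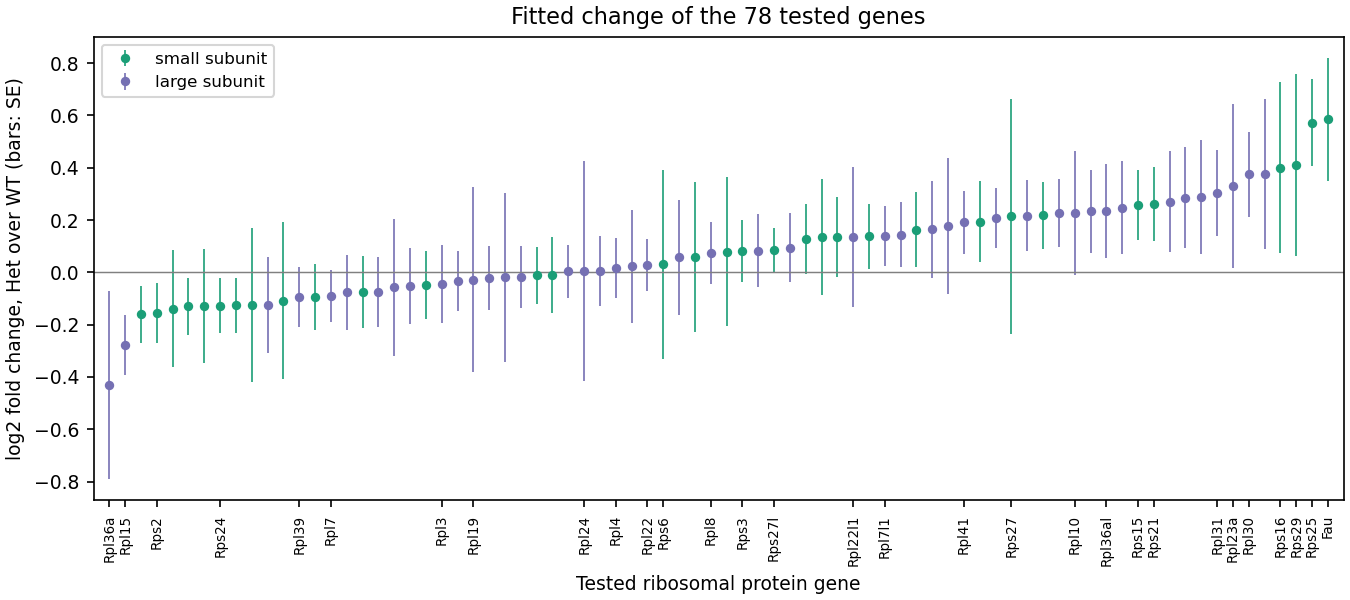
Log2 fold change of each of the 78 tested ribosomal protein genes, Het over WT, sorted from lowest to highest, with bars for the standard error of the edgeR fit and names under some of the genes described in the text. The values run from -0.43 to 0.58, with 69 of 78 within 0.3 of 0, and the lowest genes, Rpl36a and Rpl15, are of the large subunit and the highest, Fau and Rps25, of the small.

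Rps25, a small-subunit protein that several viral internal ribosome entry sites need for initiation, had the smallest p of the family. It had 5.21, 4.09 and 5.10 CPM in Het 1, Het 2 and Het 3, against 3.06, 3.13 and 3.51 CPM in WT 1, WT 2 and WT 3, so every Het library was above every WT library. The log2 fold change was 0.57 (SE 0.17), with an adjusted p of 0.654 by edgeR's quasi-likelihood test with Benjamini-Hochberg adjustment. These values rest on 131 to 380 counts per library, and 1.84% of the coding 50-base windows of Rps25 occur in no other gene.

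Fau, which encodes a ubiquitin-like protein fused to the small-subunit protein Rps30, showed the largest fitted change. It had 1.51, 1.19 and 1.34 CPM in Het 1, Het 2 and Het 3, against 0.760, 1.02 and 0.910 CPM in WT 1, WT 2 and WT 3, again without overlap. The log2 fold change was 0.58 (SE 0.24), with an adjusted p of 0.694 (edgeR, Benjamini-Hochberg). Only 34 to 100 counts per library stand behind it. All of its coding windows recur in Gm9843, a processed copy on chromosome 16 that the count table lists as protein-coding and that had 2.39, 1.70 and 1.62 CPM in the Het libraries, against 1.54, 1.19 and 2.28 CPM in the WT libraries. The copy thus drew more counts than the gene in each of the 6 libraries, and its genotypes overlapped.

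Rpl15, a large-subunit protein mutated in Diamond-Blackfan anaemia, had the smallest p of the members lower in Het. It had 15.5, 18.2 and 17.4 CPM in Het 1, Het 2 and Het 3, against 19.6, 23.0 and 19.4 CPM in WT 1, WT 2 and WT 3, with every Het library below every WT library. The log2 fold change was -0.28 (SE 0.11), with an adjusted p of 0.694 (edgeR, Benjamini-Hochberg). Its start carries a 16-base tract like that of Fau, whose fitted change had the other sign. None of its coding windows is unique, and 23 other genes share at least 1 of them.

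Rpl30, a large-subunit protein that also binds the selenocysteine insertion element of selenoprotein mRNAs, came close to the unadjusted threshold. It had 33.4, 31.95 and 32.7 CPM in Het 1, Het 2 and Het 3, against 21.3, 21.9 and 32.4 CPM in WT 1, WT 2 and WT 3. WT 3 reached the Het levels while WT 1 and WT 2 did not. The log2 fold change was 0.37 (SE 0.16, adjusted p 0.694 by edgeR), and without WT 3 it was 0.60, with an adjusted p of 0.517.

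Rps15, a protein of the head of the small subunit, completed the higher genes, with 144, 116 and 115 CPM in Het 1, Het 2 and Het 3, against 99.4, 94.4 and 120.0 CPM in WT 1, WT 2 and WT 3. Its Het and WT libraries overlapped through WT 3. On the lower side stood the small-subunit genes Rps2 and Rps24, with log2 fold changes of -0.16 and -0.13 and overlapping genotypes in both. The further members without overlap were Rpl31, Rpl36al, Rps27l and Rps29, all higher in Het, with fitted log2 fold changes of 0.31, 0.23, 0.08 and 0.41 and unadjusted edgeR p-values between 0.0999 and 0.359.

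**Figure D2:**
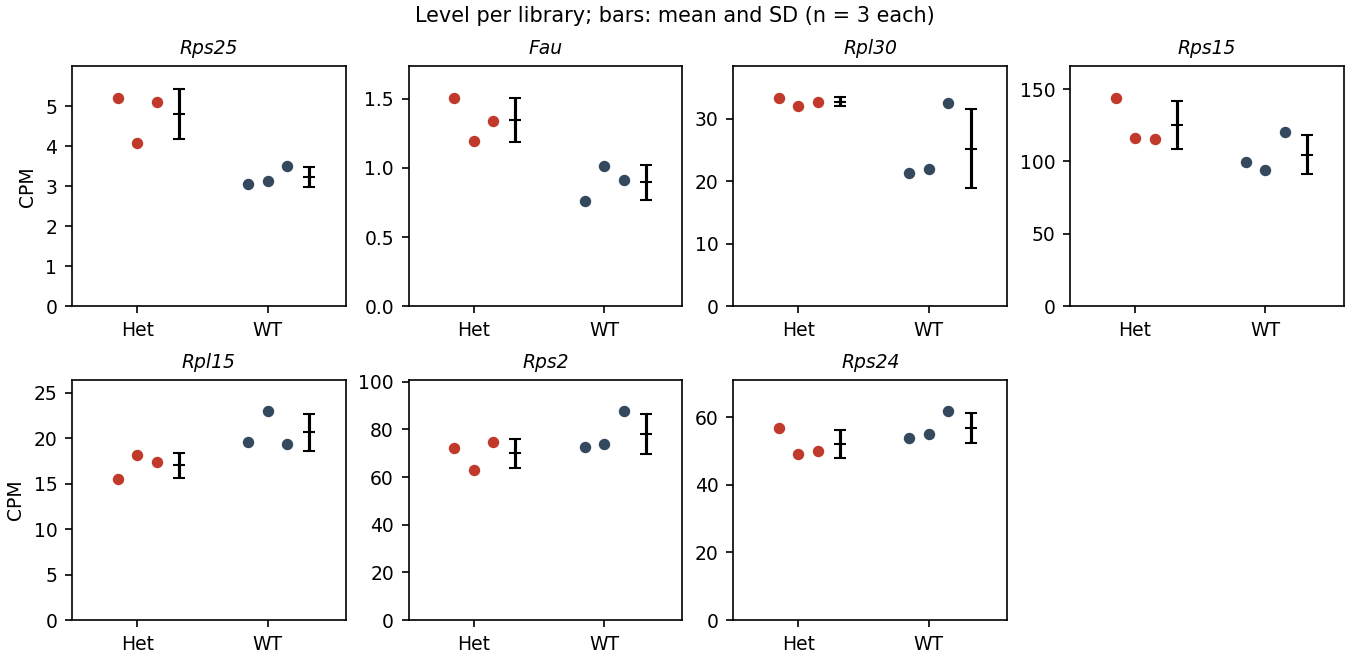
CPM in each library for 7 of the members with the smallest p in either direction, Het left and WT right, with the mean and SD (n = 3 each) beside the points and each axis starting at 0. Rps25, Fau and Rpl15 have no overlap between genotypes, while WT 3 lies within or above the Het points for the other 4 genes.

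Among the 4 untested members, Rpl38, a large-subunit protein needed for patterned translation of Hox mRNAs in the mouse embryo, was counted 12, 9 and 23 times in Het 1, Het 2 and Het 3, against 7, 4 and 3 times in WT 1, WT 2 and WT 3. It has no unique coding window, and every Het library was above every WT library in CPM. With no filter on low counts edgeR gave it a log2 fold change of 1.40 (SE 0.56), with an adjusted p of 0.663. The muscle paralog Rpl3l had at most 7 counts in a library. The testis paralogs Rpl39l and Rpl10l had at most 2 and 1. These paralogs were at or near 0 although 87.5% or more of the coding windows of each are unique.

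The remaining 4 paralogs were expressed. Rps27l, a p53 target in human cells, had 62.3, 57.9 and 57.6 CPM in Het 1, Het 2 and Het 3, against 56.3, 56.6 and 54.7 CPM in WT 1, WT 2 and WT 3. Rps27, the parent, had 1.097, 0.490 and 0.778 CPM in the Het libraries, against 0.499, 0.430 and 1.12 CPM in the WT libraries. Per coding kilobase the mean level was 228 CPM for Rps27l and 2.92 CPM for Rps27. The sequences printed above differ in the same pair: 51.7% of the coding windows of Rps27l are unique and 0% of those of Rps27. Rps27rt, identical over the printed bases, had 2 counts or fewer in each library.

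Rpl22l1, whose mRNA is held down by Rpl22 protein in mouse cells, had 21.5, 16.1 and 12.4 CPM in Het 1, Het 2 and Het 3, against 12.6, 11.7 and 21.1 CPM in WT 1, WT 2 and WT 3. Het 1 and WT 3 were the high libraries, and the log2 fold change was 0.14 (SE 0.27). Rpl22 varied less, with 84.3, 79.2 and 76.5 CPM in the Het libraries, against 77.5, 72.7 and 85.0 CPM in the WT libraries (log2 fold change 0.03). Rpl7l1 averaged 61.1 ± 5.47 CPM in Het and 55.5 ± 6.16 CPM in WT (SD, n = 3 each). Rpl7 averaged 126 ± 9.27 CPM in Het and 135 ± 7.65 CPM in WT. Rpl36al averaged 2.64 ± 0.284 CPM in Het and 2.24 ± 0.153 CPM in WT. The X-linked parent Rpl36a averaged 1.25 ± 0.435 CPM in Het and 1.71 ± 0.672 CPM in WT. The parents of the silent paralogs were all expressed, Rpl3 at 16.0 ± 3.19 CPM in Het and 16.5 ± 0.973 CPM in WT, Rpl10 at 6.36 ± 1.31 CPM in Het and 5.46 ± 1.58 CPM in WT, and Rpl39 at 10.7 ± 0.573 CPM in Het and 11.5 ± 0.832 CPM in WT. In none of these pairs did the genotypes separate for both paralog and parent.

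Although their proteins are needed in equal numbers, the members' mean levels per coding kilobase differed by 836-fold between the highest and the lowest tested gene. At the top stood Rps3, a protein at the mRNA entry channel, with 426 CPM per coding kilobase. Rpl4 had 369 and Rpl8 had 331 CPM per coding kilobase. Rpl41 had 271, a value that divides 17.3 to 24.2 CPM by a coding sequence of only 75 bases. At the bottom stood Rpl24 with 0.510, Rpl23a with 0.651, Rpl19 with 0.857, Rps6 with 0.866 and Rps16 with 1.05 CPM per coding kilobase. Rps6, the main ribosomal substrate of S6 kinase, had 0.823, 0.383 and 0.751 CPM in Het 1, Het 2 and Het 3, against 0.478, 0.645 and 0.803 CPM in WT 1, WT 2 and WT 3.

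The order of levels followed how much of a member's coding sequence is its own. A window of 50 bases was called unique if no transcript of another gene in GENCODE M21 holds it on either strand, and 79 of the 82 members shared windows with at least 1 other gene (median 9 genes), 20 of them with all windows in a single other gene. The 31 members with no unique window had a median level of 4.66 CPM per coding kilobase and held 3.94% of the family's counts. The 36 members with up to 50% unique windows had a median of 68.9 CPM per coding kilobase and held 36.5% of the counts. The 15 members above 50% had a median of 206 CPM per coding kilobase and held 59.6%. Without the minor paralogs, the 10 remaining genes above 50% ranged from 139.7 (Rpl32) to 426 CPM per coding kilobase (Rps3), and all 5 of the lowest genes named above were in the class with none.

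Across genes, Spearman's rho between the unique share and the level per coding kilobase was 0.67 over all 82 members and 0.86 over the 75 that are not minor paralogs. With 100-base windows it was 0.83 over 74 genes. Rpl41, high with no unique window, and the silent paralogs Rpl3l, Rpl10l and Rpl39l, near 0 with most windows unique, stood apart from this order. Genes are not independent replicates, all points share the same 6 libraries, and the sources used here do not state how reads with several matching places were counted. Its part in these levels was not tested, and the levels of members with few unique windows are uncertain for this reason.

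**Figure D3:**
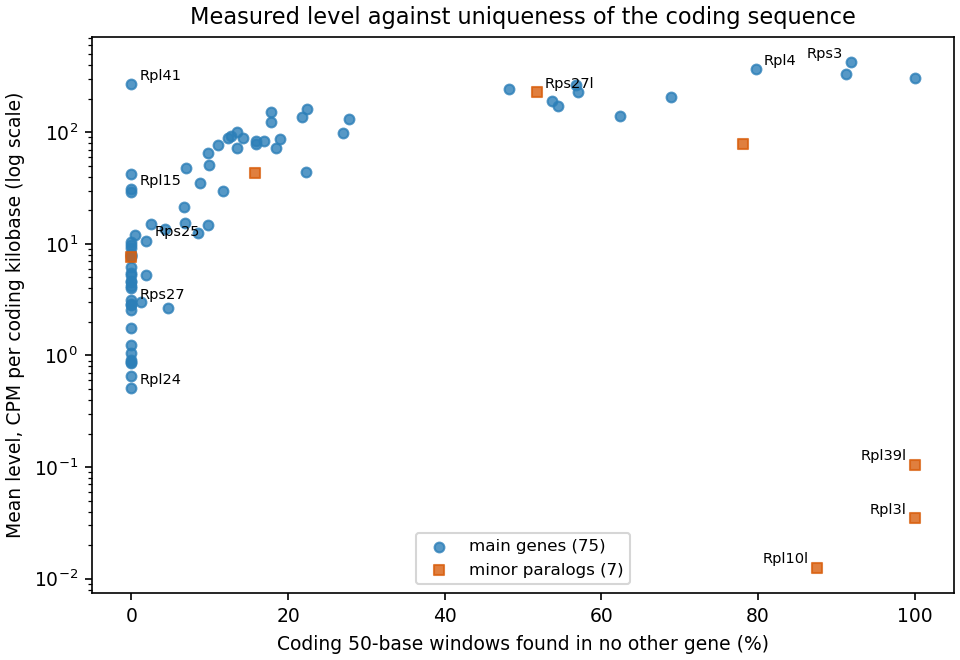
Mean level over the 6 libraries in CPM per coding kilobase (log scale) against the percent of coding 50-base windows found in no other gene, for all 82 members, with minor paralogs as squares. Levels climb from 0.510 (Rpl24) among genes with no unique window to 426 (Rps3) near 92%, and Rpl41 stands high at 0% while Rpl3l, Rpl10l and Rpl39l stand near 0.

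The precision of the members followed the same property. The biological coefficient of variation, edgeR's spread between libraries of a genotype, ranged from 11.0% for Rps27l to 35.9% for Rps27, with a median of 14.8% beside 16.3% over all tested genes. Its Spearman's rho with the unique share was -0.65 over 78 genes. The unique share also went with the level of a gene, and the part of each in this spread was not tested. Of the members 12 had under 100 counts in every library, and 30 had over 1000 in every library. The fitted fold change did not follow the unique share, with a Spearman's rho of -0.01. The median log2 fold change was 0.07 for the tested members with no unique window, -0.004 for those with up to 50% and 0.13 for the 12 tested ones above 50%. All 12 were above 0 and none of them had an edgeR p under 0.05.

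The libraries differed in a way that crossed the genotypes. Het 1 was the highest library for 46 of the 78 members (59.0%) and WT 3 for 25 (32.1%), against 22.8% and 13.2% of all tested genes. For 48 members (61.5%) these were the 2 highest libraries, against 8.66% of all tested genes. The median deviation of the members from their own mean was 0.22, -0.06 and -0.01 on the log2 scale in Het 1, Het 2 and Het 3, against -0.15, -0.13 and 0.13 in WT 1, WT 2 and WT 3. The pattern held in both subunits, at 0.21 and 0.17 in Het 1 and WT 3 for the small subunit and at 0.23 and 0.11 for the large. It also held among the 12 members with over 50% unique windows, 10 of which had Het 1 and WT 3 as their 2 highest libraries. Among the 30 tested members with no unique window, Het 1 and WT 3 were the 2 highest for 11 (36.7%). That share was below the family's 61.5% and above the 8.66% of all tested genes. Het 3 was among the 2 highest for 12 of these members. Their median deviation was 0.21 in Het 1, 0.24 in WT 3 and 0.14 in Het 3.

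Hepatocyte markers moved with it in part. Het 1 and WT 3 were the highest libraries for Apoa1, Serpina1c and Fgb. For Alb every Het library had 118412 CPM or more, above WT 3 at 117403 CPM. For Ttr every Het library had 6520 CPM or more, above WT 3 at 5934 CPM. The median deviation of the hepatocyte markers on the log2 scale was 0.33, 0.009 and 0.04 in Het 1, Het 2 and Het 3, against -0.21, -0.23 and 0.26 in WT 1, WT 2 and WT 3. Of the 5 hepatocyte markers 4 had a fold change above 0 and none was at 0, and their summed level ranged from 141908 to 176762 CPM in Het and from 118843 to 144785 CPM in WT. Erythroid markers were highest in WT 3, with a summed level of 104 to 154 CPM in Het and 93.0 to 250 CPM in WT. Among all tested genes, Spearman's rho between transcript length and deviation was -0.23, -0.0008 and 0.08 in Het 1, Het 2 and Het 3, against 0.10, 0.12 and 0.02 in WT 1, WT 2 and WT 3. The part of the markers, of transcript length and of RNA quality in the members' levels was not tested.

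**Figure D4:**
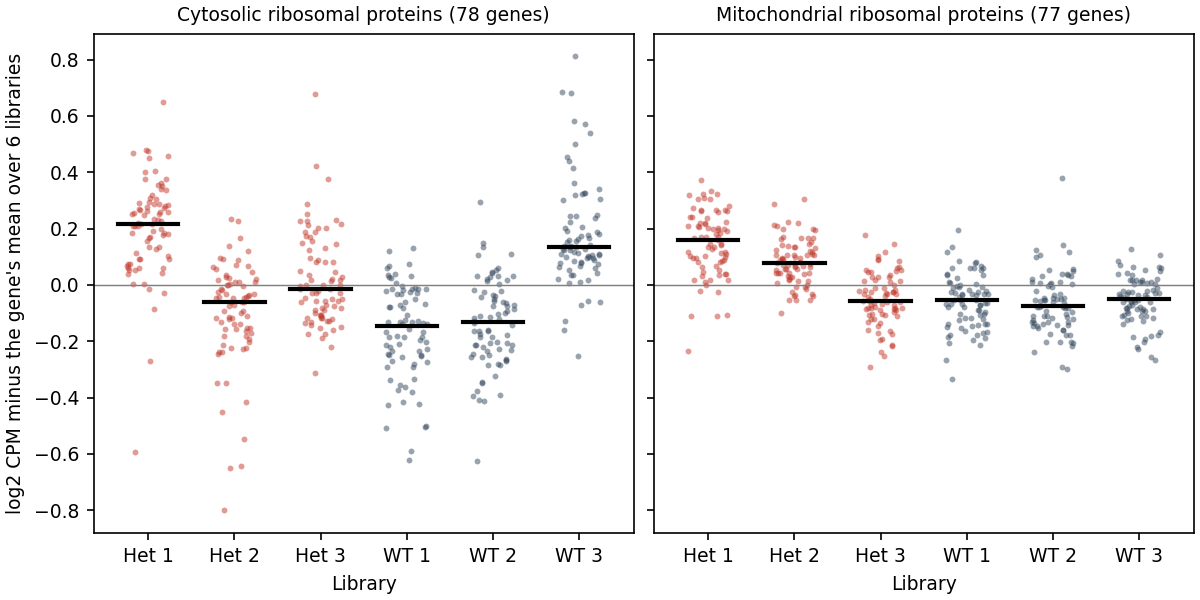
Log2 CPM of each gene minus its mean over the 6 libraries, for the 78 tested cytosolic members (left panel) and 77 mitochondrial ribosomal protein genes (right panel), with 1 point per gene and bars for the median. The cytosolic members are high in Het 1 and WT 3, with medians of 0.22 and 0.13. The mitochondrial ones are high in Het 1 and Het 2, with medians of 0.16 and 0.08. Their medians are -0.06 in Het 3, -0.05 in WT 1, -0.08 in WT 2 and -0.05 in WT 3.

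The counts for the family moved with single libraries. Without WT 3, 11 of 79 members were higher in Het at an unadjusted edgeR p under 0.05 and 1 was lower, against 3.08% and 3.29% of all genes tested in that fit, and the median log2 fold change was 0.22. Without Het 1 the median was -0.05, and 1 of 78 members was higher and 2 were lower, against 2.87% and 3.41% of all genes. Without Het 2, 4 of 79 were higher and 1 was lower, against 4.01% and 5.59%. Without Het 3, 1 of 78 was higher and 0 were lower, against 3.16% and 3.79%. Without WT 1, 2 of 79 were higher and 0 lower, against 2.46% and 2.51%, and without WT 2 the counts were the same, against 2.17% and 2.44%. With both Het 1 and WT 3 left out the median was 0.09, and 3 of 78 members were higher (Rpl30, Rps21 and Rps25) and 0 lower, against 2.84% of all genes in each direction. No member passed an adjusted p of 0.05 in any of these fits.

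The 4 ribosomal genes outside the name rule that are reported here had fold changes above 0, beside 7193 of all 14606 tested genes. Of the 4, 1 separated the genotypes, higher in Het, beside 7.15% of all tested genes. Rplp2, which forms the acidic stalk that recruits elongation factors, had 55.1, 49.3 and 47.5 CPM in Het 1, Het 2 and Het 3, against 33.1, 33.8 and 44.0 CPM in WT 1, WT 2 and WT 3. Its log2 fold change was 0.45 (SE 0.13), with an adjusted p of 0.654 by edgeR. Its partner Rplp1 had 197, 162 and 149 CPM in the Het libraries, against 120.0, 106 and 168 CPM in the WT libraries (log2 fold change 0.37, SE 0.19). Rplp0, the base of the stalk, averaged 154 ± 13.0 CPM in Het and 142 ± 19.2 CPM in WT. Rack1 averaged 297 ± 29.9 CPM in Het and 285 ± 36.2 CPM in WT (SD, n = 3 each).

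The start tract was found more often among the members than among genes at large. RefSeq promoter windows of 250 bases before to 50 after the start were matched for 63 of the 82 members, and 25 of them (39.7%) had a tract, against 13.5% of 27025 genes and 13.0% of 69 mitochondrial ribosomal protein genes. A gene with several windows was counted if any of them held the tract, and likewise for the motifs below. The 24 tested members with a tract had a median log2 fold change of 0.15, and the 35 without one of 0.005. Whether the fold change goes with the tract was not tested. The ETS-type motif CCGGAAG, searched on both strands, was found for 39.7% of the matched members, against 9.93% of all genes and 37.7% of mitochondrial ribosomal protein genes. The YY1-type motif ATGGCGGC was found for 6.35% of the matched members, against 2.60% of all genes and 17.4% of mitochondrial ribosomal protein genes. A match describes the letters of the window and is not a site of binding.

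Genes that make, load or regulate the ribosome were read from lists, and no member of them passed edgeR's adjusted threshold. The counts at an unadjusted edgeR p under 0.05 in these lists stand beside 3.39% of all tested genes higher and 3.77% lower, and those without overlap beside 7.15% higher and 6.72% lower. Of 18 other mRNAs known to carry a TOP tract, 1 was higher at an unadjusted edgeR p under 0.05 and 0 were lower, with a median log2 fold change of 0.08. That gene was Tpt1, the translationally controlled tumour protein, with 14.8, 14.2 and 13.8 CPM in Het 1, Het 2 and Het 3, against 7.12, 7.21 and 10.3 CPM in WT 1, WT 2 and WT 3. The log2 fold change of Tpt1 was 0.80 (SE 0.16), with an adjusted p of 0.526 by edgeR, while DESeq2 gave an adjusted p of 0.00788 and the range over all settings was 0.00788 to 0.955. Eif3e, an initiation factor subunit, averaged 44.9 ± 0.615 CPM in Het and 50.4 ± 0.210 CPM in WT (SD, n = 3 each), without overlap and with a log2 fold change of -0.17.

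Of 33 initiation factors 0 were higher and 1 was lower at an unadjusted edgeR p under 0.05, near the shares of all genes, with a median log2 fold change of 0.08. Without overlap were 4 higher and 4 lower. Eif5, the GTPase activator of the scanning complex, averaged 180 ± 18.3 CPM in Het and 226 ± 17.7 CPM in WT, and Eif1, which helps select the start codon, had a log2 fold change of 0.24. Of 12 elongation and termination factors none had an unadjusted edgeR p under 0.05, and the smallest belonged to Eef2k, the kinase that inhibits elongation factor 2, at 18.8 ± 4.99 CPM in Het and 13.4 ± 2.87 CPM in WT. The release factor gene Etf1 had a log2 fold change of -0.14. Of 56 ribosome biogenesis genes 2 were higher, about the share of all genes, and 0 lower, with a median of 0.002. Without overlap were 4 higher, those 2 among them, and 1 lower. Ubtf, which activates RNA polymerase I, averaged 64.1 ± 3.61 CPM in Het and 51.6 ± 2.74 CPM in WT, and Rrp9, of the U3 particle, 10.4 ± 1.25 CPM in Het and 7.62 ± 0.857 CPM in WT.

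Of 22 regulators of the mTOR, S6 kinase, LARP1 and MYC group 0 were higher and 2 lower at an unadjusted edgeR p under 0.05, Larp4 at a log2 fold change of -0.33 and Rps6ka3 at -0.36, with a list median of 0.004. Of 16 p53 targets and ribosome stress genes 0 were higher and 1 lower (Mdm4, -0.28), with a list median of -0.10, and Trp53inp1 had a log2 fold change of -0.55 with overlapping genotypes. Of 11 ribosome quality control genes none had an edgeR p under 0.05, with a median of 0.07. Gcn1l1, which senses stalled ribosomes, had a log2 fold change of 0.20 without overlap, and Ltn1, which marks stalled chains with ubiquitin, one of -0.21 with overlap.

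Mitochondrial ribosomal proteins, which build the separate ribosome of mitochondria, are set beside the cytosolic ones. Of 77 tested genes 69 had a fold change above 0, beside 7193 of all 14606, and the median log2 fold change was 0.14. At an unadjusted edgeR p under 0.05, 4 were higher and 0 lower, beside 3.39% and 3.77% of all tested genes. Every Het library was above every WT library for 19, beside 7.15% of all tested genes. Among cytosolic members that last count was 6 of 78 (7.69%). WT 3 was the highest library for 0 of the 77 mitochondrial genes and for 25 of the 78 cytosolic ones. The Het libraries were not alike for the mitochondrial genes. Het 1 was the highest library for 47 of them (61.0%), Het 2 for 20 (26.0%) and Het 3 for 2 (2.6%). Het 3 was the lowest library for 19 (24.7%), and their median deviation in it was -0.06. Mrps18b averaged 19.8 ± 1.38 CPM in Het and 14.8 ± 0.746 CPM in WT (SD, n = 3 each), with a log2 fold change of 0.42, and that of Mrps21 was 0.31. The difference between the 2 families was not tested.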

How the data were processed

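Poly(A)-selected RNA was sequenced from stranded libraries, per the labels' protocols. The authors deposited raw read counts per Ensembl gene in 6 columns, with a transcript length per gene, per the file headers, and the lengths were used only for a check of length. STAR 2.5.3a and HTSeq 0.6.1p1, with cutadapt 1.10, bcl2fastq 2.17.1.14, DESeq2 1.16.1 and the mm10 assembly, are named in the submitters' processing notes. Not given in the sources used here are the annotation release, the strand setting and how reads with several matching places were treated, so overlapping and antisense genes are uncertain. A further 12 columns of per-sample values and the authors' comparison table were not used here.

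Counts were filtered with filterByExpr, scaled by TMM and tested with edgeR 4.0.16 in R 4.3.3 (quasi-likelihood, two-sided, no covariate beside genotype), and p-values were adjusted after Benjamini and Hochberg over 14606 tested genes. The fit was tested on simulated data first. CPM uses TMM-scaled library sizes, and levels between genes are divided by coding length from GENCODE M21. DESeq2 1.42.0, limma-voom (limma 3.58.1), RLE and upper-quartile scaling, TMM without the members, no filter, a filter of 1 CPM in 3 libraries, added counts of 178 pseudogenes (named after 55 members), the replicate number as a block and each library left out were alternatives. Leaving out Het 1 and WT 3 together was added after seeing the data.

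The members and lists were chosen with earlier results of these data known. Named by rule were the 4 members of smallest p in each direction, paralogs with their parents, the 5 highest and 5 lowest levels, ribosomal genes outside the name rule, 2 genes per list by smallest p, and Ptprd. Of the genes this rule took, 3 are not reported here. Other genes were named after their values were seen. Promoters and start sequences are from RefSeq (GRCm38.p6).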

Additional observations from a re-analysis of the deposited data

How the results depend on the processing

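The number of members higher in Het at an unadjusted p under 0.05 was 2 with edgeR and ranged from 1 to 11 when 1 library was left out. The number lower was 1, and was 0 with no filter, with DESeq2 and without both Het 1 and WT 3; it ranged from 0 to 2 with 1 library left out. Over all genes, 0 were called at an adjusted p under 0.05, 73 with no filter, 64 with DESeq2 and 0 to 1 with 1 library left out. No member was called in any setting. The family's median log2 fold change ranged from -0.05 to 0.22, and the difference in its share of counts from -0.0062 to 0.016 percentage points, with 1 library left out.

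With 1 library left out, log2 fold changes took both signs for Rpl22l1 (-0.10 to 0.45), Rps27 (-0.074 to 0.75), Rpl22 (-0.017 to 0.092), Rpl3 (-0.22 to 0.050), Rpl8 (-0.0034 to 0.16), Rpl4 (-0.073 to 0.080), Rpl24 (-0.66 to 0.22), Rpl19 (-0.21 to 0.34), Rps6 (-0.15 to 0.30) and Rack1 (-0.033 to 0.17). Without both Het 1 and WT 3, the sign turned for Rpl4 (-0.021) and Rpl19 (0.23). Rpl24 was at -0.11 with limma-voom and -0.042 with DESeq2, and Rpl19 at 0.025 with limma-voom and 0.041 with pseudogene counts added. The cause was not tested.

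With the replicate block, 2 members were higher, 1 was lower, the median was 0.07 and 0 genes were called, while Rpl24 was at -0.15 and Rps6 at -0.018. Same-numbered libraries correlated at -0.07, 0.12 and 0.15 in their deviations, and 2 of 6 libraries correlated best with their own number. With 3 libraries per genotype this check cannot decide whether the numbers pair the samples. Depth limits the members with few counts: 12 had under 100 in every library.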
